A study of Danio rerio with 45 samples.

Results

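Zebrafish embryos make a set of transcripts that are all but absent until late blastula and early gastrula stages and stand at moderate to high levels when gastrulation ends. Here these late transcripts are the genes whose wild-type (WT) mean was below 1 FPKM (fragments per kilobase of transcript, scaled to the mapped fragments of the library) at 2.5, 3.3, 4.5 and 5.3 hours post fertilisation (hpf) and at least 15 FPKM at 10 hpf. Of 31966 genes, 321 met these thresholds, and 32 small RNA names, 14 hox genes and 2 claudin genes were left out, which left 273. A gene symbol was given for 224 of them and a clone-style name for 49, and 6 were merged loci that carry several names. They were selected on the WT values, so their absence before 10 hpf and their presence at 10 hpf in WT are a description and no finding.

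All embryos were of strain AB/PS. Wild-type embryos were set beside embryos that had received a morpholino to rad21 (Rad21 MO) or to ctcf (CTCF MO), at the 5 stages above. A morpholino is an antisense oligomer that keeps its target RNA from being translated or spliced. Each of the 15 groups held 3 libraries of stranded total RNA depleted of ribosomal RNA, each from a pool of 100 embryos that had been matched in stage by eye. Whether the pools of a group were of different clutches, and whether WT embryos got a control injection, is not in the labels, so p-values measure the spread between pools, and an effect of injection cannot be told apart from that of a morpholino. Whole embryos were measured, so fewer cells of a type and less RNA per cell cannot be told apart in any value below. Values are listed in the order of the 3 columns of each group in the authors' table, which carry numbers and no replicate letters.

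Rad21 is a subunit of cohesin, the ring-shaped complex that holds sister chromatids together and forms loops of chromatin, and CTCF is the zinc-finger protein that binds DNA and can stop such loops at its sites. During gastrulation the zebrafish embryo lays down its germ layers and axes. By the tail-bud stage the first tissue programmes are running, among them the hatching gland, which makes the proteases that soften the egg envelope, the paraxial mesoderm, which becomes somites and muscle, the neural plate with its regional transcription factors, and the yolk syncytial layer and endoderm, which make plasma and lipid-carrying proteins.

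Most of the 273 late transcripts were of moderate abundance in WT at 10 hpf. Means lay between 15 and 50 FPKM for 203 of them, between 50 and 100 FPKM for 37 and at 100 FPKM or more for 33, with a median of 26.3 FPKM. Just inside the upper threshold lay sox21b (15.01 FPKM), camk1gb (15.1 FPKM) and twist1a (15.1 FPKM), and just outside it TMEM233 (14.8 FPKM), fezf2 (14.7 FPKM) and nkx2.9 (14.7 FPKM). At the lower threshold, the highest earlier WT mean was 0.996 FPKM for her12, 0.989 FPKM for gpd1c and 0.978 FPKM for mogat2, all inside, and 1.003 FPKM for f2 and 1.07 FPKM for gamt, both outside. A WT mean of exactly 0 at all 4 earlier stages was listed for 23 of the late transcripts.

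Leaving aside dock9a, described below, the most abundant symbols at 10 hpf included genes of lipid and plasma protein supply, the hatching gland and muscle. The intestinal fatty acid binding protein gene fabp2 stood at 542, 857 and 709.6 FPKM in the WT libraries, at 1032, 909 and 645 FPKM in Rad21 MO and at 602, 1035 and 619 FPKM in CTCF MO. For apobl, an apolipoprotein B-like gene, the libraries gave 414, 729 and 649 FPKM in WT, 715, 551 and 410.5 FPKM in Rad21 MO and 483, 581 and 452 FPKM in CTCF MO. The 3 groups overlapped for both genes. Next in order were the hatching enzyme gene he1a (441 ± 7.51 FPKM; SD, n = 3), the parvalbumin gene pvalb9, which encodes a calcium-binding protein (297 ± 18.3 FPKM; SD, n = 3), the apolipoprotein gene apoa4, which shares a merged locus (276 ± 49.8 FPKM; SD, n = 3), and the thioredoxin gene txn (236 ± 85.7 FPKM; SD, n = 3). Below them came the myosin light chain gene myl10 (232 ± 11.7 FPKM; SD, n = 3), the cathepsin L gene ctsl1b (195 ± 17.8 FPKM; SD, n = 3) and serpina1, which encodes a plasma protease inhibitor (189 ± 47.95 FPKM; SD, n = 3). Of these, he1a alone was called by limma at 10 hpf, against CTCF MO and not WT, as given below. The authors list he1a as higher and txn as lower in Rad21 MO against WT, txn with a log2 fold change of -0.515 (q = 0.00901).

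Some entries at the top of the ranking rest on a single library. BX571813.3, CR847785.1, FP243387.1, CR933818.1 and the 97 base pair locus named dock9a were listed at 0 in 2 WT libraries at 10 hpf, and dock9a had 2375 FPKM in the third. The other 268 late transcripts were present in all 3 WT libraries, and 269 of the 273 had enough libraries at 1 FPKM or more to be tested at 10 hpf.

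The libraries at 10 hpf differed in scale. FPKM sums ran from 1368093 to 1815964, with both extremes in WT and 24.8% to 31.3% of the sum in small RNA. Read depth itself is not given. Rescaling to equal sums cut the genes called in Rad21 MO against WT from 532 to 89, and the late transcripts called from 15 to 5. The morpholinos' own targets were not lower: rad21a stood at 170.0 ± 31.7 FPKM in WT and 182.8 ± 10.7 FPKM in Rad21 MO, and ctcf at 150.3 ± 6.66 FPKM in WT and 155.4 ± 13.1 FPKM in CTCF MO (SD, n = 3 each), and RNA levels do not measure a block of translation. In Rad21 MO, however, ctcf was lower, at 96.0 ± 7.92 FPKM (SD, n = 3; log2 difference to WT -0.64, SE 0.10, adjusted p = 0.0177). A list of p53 response genes (19 matched loci) stood highest in the Rad21 MO libraries and differed widely between libraries within WT and within CTCF MO. Its summed level was 3503, 1128 and 1016 FPKM in the WT libraries, 4432, 5628 and 4834 FPKM in Rad21 MO and 2726, 981 and 3279 FPKM in CTCF MO, and of 18 tested genes 4 were called higher and 1 lower in Rad21 MO against WT. Within that sum, ccng1 alone gave 1824, 441 and 339 FPKM in the WT libraries. A list of markers of earlier stages summed to between 3281 and 4719 FPKM, with overlapping groups, and 1 of its 12 tested genes was called lower in Rad21 MO. In the WT libraries apoeb alone gave 3108, 4344.5 and 3974 FPKM of sums of 3486, 4719 and 4354 FPKM. The overlap thus mostly reports this gene and says little on the other markers. The part of either list in the results below was not tested. The WT library with the high p53 sum is given among the values, and counts without it are stated for the comparisons with WT. It was not left out of the comparison of Rad21 MO with CTCF MO, where it enters the estimate of spread.

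The late transcripts appeared between 5.3 and 10 hpf in both morpholino courses too. Their median at 5.3 hpf was 0.197 FPKM in WT, 0.186 FPKM in Rad21 MO and 0.265 FPKM in CTCF MO, and the medians at 2.5 hpf were 0.0448, 0.0425 and 0.0482 FPKM in the same order. Over the 268 present in every WT library, the median of the 10 hpf means was 25.7 FPKM in WT, 24.9 FPKM in Rad21 MO and 26.9 FPKM in CTCF MO. From 5.3 to 10 hpf, 268 of the 269 tested in the Rad21 MO course and 267 of the 268 tested in the CTCF MO course were called higher, beside 39.2% and 36.1% of all genes tested. Since these genes pass the filter on low values through their 10 hpf libraries, they had to differ, and nothing is read from these counts.

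**Figure D1:**
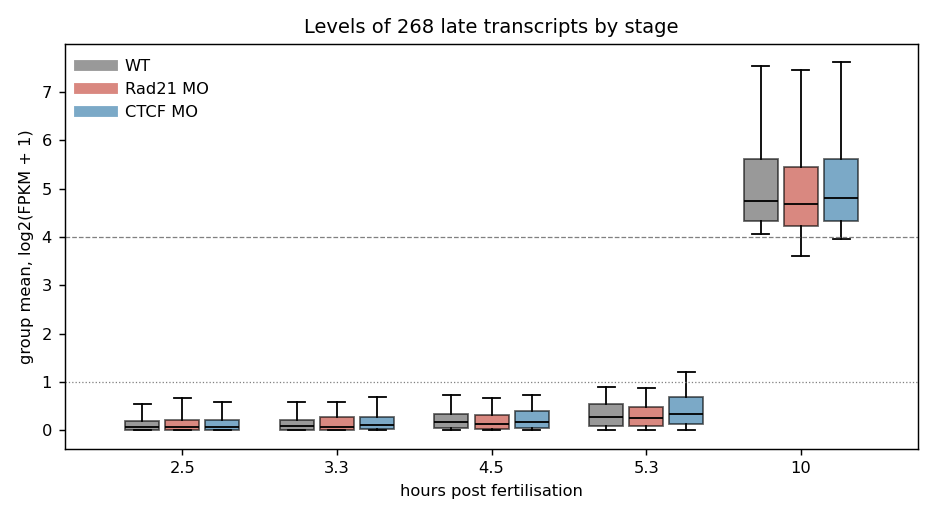
Group means of 268 late transcripts at each stage, as log2(FPKM + 1), with boxes for the quartiles, black lines for the medians and whiskers from the 5th to the 95th percentile of genes. The dotted line is 1 FPKM and the dashed line 15 FPKM. In all 3 groups the boxes stay below the dotted line up to 5.3 hpf and stand above the dashed line at 10 hpf.

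When the same thresholds were applied to each morpholino course on its own, 278 genes met them in Rad21 MO and 264 in CTCF MO. The Rad21 MO set shared 215 genes with the WT set, 78.8% of the WT set and 77.3% of its own. The CTCF MO set shared 223, which is 81.7% of the WT set and 84.5% of its own, and 190 genes met the thresholds in all 3 courses. Of the 58 late transcripts that missed them in Rad21 MO, 46 lay below 15 FPKM at 10 hpf and 16 reached 1 FPKM earlier, and of the 50 that missed them in CTCF MO these counts were 21 and 33. Genes crossed in the other direction as well, 63 in Rad21 MO and 41 in CTCF MO, and 80 of the 273 lie within 5 FPKM of the upper threshold in WT.

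A group mean of 1 FPKM or more before 10 hpf was reached by 16 late transcripts in Rad21 MO and 33 in CTCF MO, mostly at 5.3 hpf (11 and 28). Because WT was held below 1 FPKM by the rule, crossings of that line could be counted only in the morpholino groups, and these counts are a description. The antithrombin gene serpinc1 stood at 1.76, 1.80 and 1.88 FPKM in the Rad21 MO libraries at 5.3 hpf and at 0.682, 0.293 and 0.606 FPKM in WT. For pmp22a, which encodes a peripheral myelin protein, the values at 5.3 hpf were 2.61, 4.05 and 2.47 FPKM in CTCF MO, 2.25, 1.83 and 1.28 FPKM in Rad21 MO and 1.105, 1.18 and 0.647 FPKM in WT. ripply2, a repressor at the somite boundary, had 1.003, 2.85 and 2.60 FPKM in CTCF MO against 0.548, 1.65 and 0.679 FPKM in WT. The libraries did not overlap for serpinc1 and pmp22a and overlapped for ripply2. At 5.3 hpf, 3 of the 11 in Rad21 MO and 9 of the 28 in CTCF MO lay wholly above WT. The same rule favours values above WT in genes picked this way, so nothing is read from the gaps. Only 4 late transcripts in Rad21 MO and 9 in CTCF MO reached 1 FPKM in all 3 libraries of a group at an earlier stage.

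At 10 hpf most of these transcripts stood near their WT level in Rad21 MO. Means in Rad21 MO lay within 1.5-fold of WT for 228 of 268 (85.1%) and within 2-fold for 251. At least 2-fold below WT lay 16, and 1 lay at least 2-fold above. In CTCF MO, 262 (97.8%) lay within 1.5-fold of WT and 267 within 2-fold. These shares were not taken over other genes. The rule also held the WT means at 15 FPKM or more, which favours falls over rises, so they only describe the late transcripts. Across these genes the log2 means of Rad21 MO and WT had a Pearson correlation of 0.93, and those of CTCF MO and WT of 0.98, a description over 268 genes measured in the same 3 libraries per group.

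Against WT, 15 of the 269 tested late transcripts were called in Rad21 MO at an adjusted p under 0.05, 2 higher and 13 lower. The background was 3.23% of 16485 genes, 0.789% higher and 2.44% lower. Among all genes at 15 FPKM or more in WT the share called was 5.31%, close to the 5.58% of the late transcripts. The median log2 difference was -0.08 over the late transcripts, -0.07 over all genes at that level and 0.02 over all genes tested. The WT libraries at 10 hpf also chose the late transcripts, so nothing is read from their count in this comparison. Without WT library 0, the one with the high p53 sum, 19 were called, and without Rad21 MO library 2 or WT library 2 only 6.

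The difference of Rad21 MO to CTCF MO at 10 hpf uses none of the WT libraries on which the thresholds were set. Those libraries do enter the filter and the shared estimate of spread, and so the SE and adjusted p. The late transcripts were also taken up with earlier results of these data known, so the counts of this comparison are given as a description. Here 23 of 269 late transcripts were called, 6 higher and 17 lower in Rad21 MO, against a background of 3.38% of all 16485 genes tested, 0.843% higher and 2.54% lower. The share was 8.55% of the late transcripts and 5.26% of all genes at 15 FPKM or more in WT. The median log2 difference was -0.09 over the late transcripts and -0.06 over all genes at that level. Between 7 and 16 late transcripts were called when a single library of Rad21 MO or CTCF MO was left out. The count was 7 without CTCF MO library 0 and 7 without Rad21 MO library 2. It was 16 without CTCF MO library 1, the CTCF MO library with the low p53 sum. Both comparisons use the same Rad21 MO libraries. All 15 and all 23 called transcripts had libraries that did not overlap between the groups compared, WT library 0 included. With 3 libraries a group this nearly follows from the call itself, so nothing is read from it. Of all genes tested, called or not, 26.3% and 25.8% had such libraries.

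**Figure D2:**
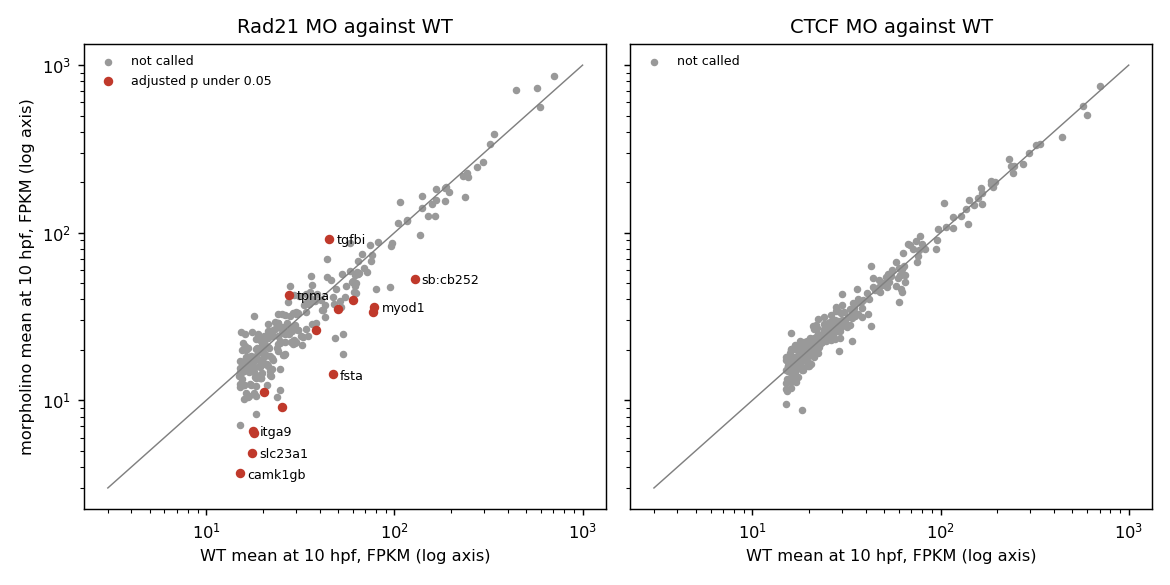
WT mean at 10 hpf (x axis, FPKM, log scale) against the mean in Rad21 MO (left) or CTCF MO (right; y axis, FPKM, log scale) for 268 late transcripts, with the line of equal values. Red points were called against WT, 13 below the line and 2 above it, and no point was called in CTCF MO.

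fsta and the merged locus that holds bmp3 were called lower in Rad21 MO in both comparisons. The follistatin gene fsta, whose product binds and inhibits activin and BMP ligands, stood at 40.9, 53.6 and 46.3 FPKM in WT, 15.1, 16.5 and 11.4 FPKM in Rad21 MO and 42.9, 55.5 and 58.4 FPKM in CTCF MO. All 3 Rad21 MO libraries lay far below the other 6. The log2 difference of Rad21 MO was -1.65 (SE 0.17, adjusted p = 0.00473) to WT and -1.80 (SE 0.17, adjusted p = 0.00429) to CTCF MO. The locus that holds bmp3, which encodes a ligand of the TGF-beta superfamily, is merged with C5H4orf22, so its level cannot be assigned to bmp3 alone. It gave 21.03, 27.6 and 27.5 FPKM in WT, 8.89, 10.16 and 8.36 FPKM in Rad21 MO and 22.004, 25.6 and 28.7 FPKM in CTCF MO, again with all Rad21 MO libraries below the rest. The differences were -1.37 (SE 0.15, adjusted p = 0.00473) to WT and -1.38 (SE 0.15, adjusted p = 0.00635) to CTCF MO. Both genes stayed called in both comparisons under every one of 13 alternatives.

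The muscle determination genes myod1 and myf5 were lower in Rad21 MO. For myod1, the transcription factor gene that starts the muscle programme (Zv9 chromosome 25, 32264523 to 32266764 in the authors' file), the libraries gave 83.8, 68.6 and 81.9 FPKM in WT, 36.98, 39.6 and 31.4 FPKM in Rad21 MO and 109, 74.1 and 103 FPKM in CTCF MO. All Rad21 MO libraries lay below all of the others. The log2 difference was -1.10 (SE 0.16, adjusted p = 0.0126) to WT and -1.37 (SE 0.16, adjusted p = 0.0064) to CTCF MO. Its partner myf5 stood at 63.9, 62.3 and 53.6 FPKM in WT, 41.3, 38.6 and 38.6 FPKM in Rad21 MO and 61.001, 67.3 and 55.8 FPKM in CTCF MO, without overlap between Rad21 MO and the others. These differences were smaller, -0.58 (SE 0.11, adjusted p = 0.0272) to WT and -0.62 (SE 0.11, adjusted p = 0.0243) to CTCF MO. The call of myf5 was lost under 7 of 13 alternatives in each comparison, with adjusted p up to 0.152 and 0.103, whereas that of myod1 against CTCF MO held under all of them and against WT was lost without Rad21 MO library 2, without WT library 2 and after rescaling to equal sums (adjusted p up to 0.0689).

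camk1gb and slc23a1 were also called lower in Rad21 MO in both comparisons. camk1gb, a calcium/calmodulin-dependent protein kinase gene, stood at 13.03, 20.4 and 11.8 FPKM in WT, 7.26, 1.71 and 2.03 FPKM in Rad21 MO and 14.8, 26.6 and 12.7 FPKM in CTCF MO, and it had the lowest Rad21 MO mean of the 268 (3.67 ± 3.12 FPKM; SD, n = 3). Its difference to CTCF MO was -2.15 (SE 0.43, adjusted p = 0.0361). The spread between libraries was wide, and its call was lost under 11 of 13 alternatives against WT (adjusted p up to 0.173) and 6 of 13 against CTCF MO (up to 0.134). slc23a1, whose mammalian counterpart carries vitamin C into cells, gave 15.2, 21.2 and 16.1 FPKM in WT, 6.45, 3.43 and 4.68 FPKM in Rad21 MO and 18.96, 15.6 and 19.02 FPKM in CTCF MO, and its difference was -1.68 (SE 0.21, adjusted p = 0.00659) to WT and -1.72 (SE 0.21, adjusted p = 0.0064) to CTCF MO. The slc23a1 libraries of Rad21 MO all lay below the other 6, and its call held under all 13 alternatives in both comparisons.

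itga9, an integrin alpha subunit gene, had means of 17.7 ± 4.39 FPKM (SD, n = 3) in WT, 6.57 ± 1.95 FPKM (SD, n = 3) in Rad21 MO and 17.1 ± 1.22 FPKM (SD, n = 3) in CTCF MO, with a difference of -1.31 (SE 0.22, adjusted p = 0.0222) to WT. Its call was lost under 3 of 13 alternatives against WT and 5 of 13 against CTCF MO, with adjusted p up to 0.0912 in each. alcama, an immunoglobulin-type adhesion gene, stood at 50.1 FPKM in WT, 35.1 FPKM in Rad21 MO and 49.95 FPKM in CTCF MO. The protocadherin gene pcdh19 was called against CTCF MO, at -0.47 (SE 0.09, adjusted p = 0.0362), and its difference to WT was -0.39 (SE 0.09, adjusted p = 0.0609). The calls of alcama and pcdh19 were lost under 8 or more of the 13 alternatives. The LIM-domain gene fhl3 (-0.81 to WT and -0.70 to CTCF MO) and the names sb:cb252 (-1.27 and -1.25) and ENSDARG00000078976 (-1.36 and -1.32) were called lower in both comparisons. The call of fhl3 was lost under 7 of 13 alternatives against WT (adjusted p up to 0.106) and 9 of 13 against CTCF MO (up to 0.143), and that of sb:cb252 under 6 of 13 in each (up to 0.1 and 0.105).

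cdx1a, sp8a, dlx5a and cav1 were called lower in Rad21 MO against CTCF MO and not against WT. cdx1a, a caudal-type homeobox gene of the posterior body, stood at 48.8, 32.98 and 47.03 FPKM in WT, 30.98, 35.5 and 27.9 FPKM in Rad21 MO and 64.7, 59.998 and 65.9 FPKM in CTCF MO. The Rad21 MO libraries overlapped those of WT and lay below those of CTCF MO, which were themselves above every WT library. Its difference was -0.9958 (SE 0.16, adjusted p = 0.0162) to CTCF MO and -0.42 (SE 0.16, adjusted p = 0.186) to WT. sp8a, a zinc-finger gene of the anterior neural plate and fin buds, differed by -0.67 (SE 0.15, adjusted p = 0.0451) from CTCF MO and -0.52 (SE 0.15, adjusted p = 0.0982) from WT. For dlx5a, a homeobox gene of the neural plate border, the values were -0.59 (SE 0.13, adjusted p = 0.0422) and -0.52 (SE 0.13, adjusted p = 0.0641). The caveolin gene cav1, which encodes a coat protein of membrane pits, gave 28.3, 23.8 and 19.6 FPKM in WT, 11.9, 8.71 and 10.96 FPKM in Rad21 MO and 35.8, 18.7 and 39.8 FPKM in CTCF MO, with a difference of -1.44 (SE 0.27, adjusted p = 0.029) to CTCF MO and -1.11 (SE 0.27, adjusted p = 0.0582) to WT. Each of these 4 calls was lost without some single library, with adjusted p up to 0.0831 for cdx1a, 0.145 for sp8a, 0.159 for dlx5a and 0.111 for cav1.

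Fewer late transcripts were higher in Rad21 MO. tgfbi, which encodes a TGF-beta-induced matrix protein, stood at 45.6, 41.1 and 48.01 FPKM in WT, 89.7, 105 and 82.3 FPKM in Rad21 MO and 52.1, 38.8 and 45.02 FPKM in CTCF MO. Its Rad21 MO level was about 2-fold that of either other group, with no overlap. The difference was 1.02 (SE 0.14, adjusted p = 0.00842) to WT and 1.01 (SE 0.14, adjusted p = 0.01) to CTCF MO, and the call against CTCF MO held under all 13 alternatives while that against WT was lost in the rescaling to equal sums (adjusted p = 0.0503). The tropomyosin gene tpma gave 31.1, 25.2 and 26.6 FPKM in WT, 43.3, 46.5 and 37.7 FPKM in Rad21 MO and 30.5, 31.5 and 28.5 FPKM in CTCF MO, a difference of 0.60 (SE 0.12, adjusted p = 0.0341) to WT and 0.48 (SE 0.12, adjusted p = 0.0652) to CTCF MO. Its call against WT was lost under 7 of 13 alternatives, among them 5 of the 6 that left out a library (adjusted p up to 0.142). Called against CTCF MO and not against WT were col7a1l, a collagen VII-like gene (0.85, SE 0.17, adjusted p = 0.0338), g6pca.2, a glucose-6-phosphatase gene (0.82, SE 0.18, adjusted p = 0.0411), ambpl, an alpha-1-microglobulin/bikunin precursor-like gene (0.72, SE 0.14, adjusted p = 0.0299), and si:ch1073-155h21.1 (0.91, SE 0.17, adjusted p = 0.0294). These 4 were lost under 5 to 9 of the 13 alternatives. CTCF MO itself had the lower mean against WT in all 4, with differences of -0.32, -0.31, -0.52 and -0.22 in the same order, none of them called. The authors list col7a1l (log2 fold change 0.511, q = 0.0231) and si:ch1073-155h21.1 (0.728, q = 0.00122) as higher in Rad21 MO against WT. They do not list g6pca.2 and ambpl. For ambpl the means were 29.0 FPKM in WT, 33.1 FPKM in Rad21 MO and 19.8 FPKM in CTCF MO, and every CTCF MO library lay below WT. Its difference thus lies mostly in a low CTCF MO group.

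**Figure D3:**
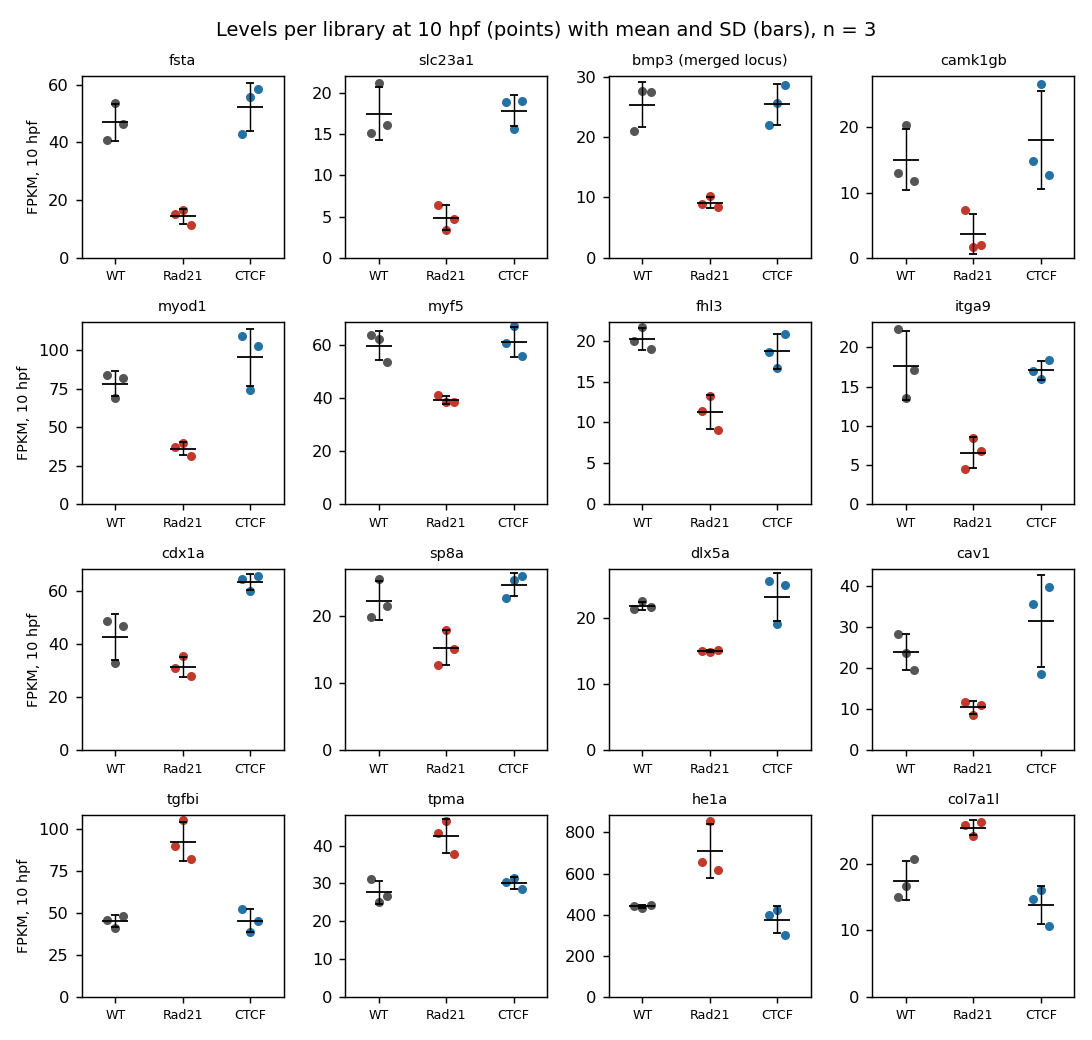
Level at 10 hpf (FPKM, axes from 0) of 16 late transcripts in each library of WT, Rad21 MO and CTCF MO, with the mean and SD of 3 libraries. For the first 12 genes Rad21 MO is the lowest group by its mean, and for the last 4 it is the highest.

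Described by tissue, 69 of the 273 are on at least 1 of 10 lists of tissue or matrix genes. The paraxial mesoderm and muscle list holds 12 of them, and 2 (myod1 and myf5) were called lower in Rad21 MO in each comparison, with a median difference of -0.05 to WT and -0.21 to CTCF MO. The contractile genes on this list were not called (tpma, above, is not on it). The skeletal actin gene acta1a stood at 198, 185 and 174 FPKM in WT, 176, 153 and 134 FPKM in Rad21 MO and 227, 197 and 189 FPKM in CTCF MO, and its difference was -0.28 (SE 0.12, adjusted p = 0.27) to WT and -0.41 (SE 0.12, adjusted p = 0.107) to CTCF MO. The slow myosin heavy chain gene smyhc1 differed by -0.33 from WT (adjusted p = 0.458), the cardiac-type actin genes actc1a and actc1b by 0.05 and 0.16, the intermediate filament gene desma by 0.20 and myl10 by -0.09. A further actin locus among the late transcripts, ACTC1, had means of 53.15 FPKM in WT and 24.7 FPKM in Rad21 MO. It was not called (-1.05, SE 0.30, adjusted p = 0.0979, to WT), but all its Rad21 MO libraries lay below those of WT. The authors list ACTC1 with a log2 fold change of -1.13 (q = 0.00122). Actin genes are near-identical in sequence, so their separate values are uncertain. meox1, a homeobox gene of the somite, differed by -0.0042 (adjusted p = 0.992). Of 25 other tested genes of this list, 1 was called lower against WT and 2 against CTCF MO, and none higher.

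Hatching-gland genes rank among the most abundant, and he1a, which encodes a protease that digests the egg envelope, was the member called. Its libraries gave 442, 433 and 447 FPKM in WT, 654, 857 and 615 FPKM in Rad21 MO and 400.3, 423 and 302 FPKM in CTCF MO. All Rad21 MO libraries lay above all others. The difference was 0.92 (SE 0.16, adjusted p = 0.0249) to CTCF MO and 0.67 (SE 0.16, adjusted p = 0.0593) to WT, and the call against CTCF MO was lost in 5 of the 6 fits that left out a library (adjusted p up to 0.0862). he1b, from the same locus record, stood at 75.4, 109 and 137 FPKM in WT, 144, 141 and 174 FPKM in Rad21 MO and 107, 132 and 85.4 FPKM in CTCF MO and was not called (0.54, SE 0.22, adjusted p = 0.232, to WT), and reads may be split between these copies. Of 7 other tested genes on the hatching gland and prechordal plate list, 1 was called higher against WT and none against CTCF MO.

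A cluster of 9 late transcripts lies on Zv9 chromosome 12, from 17583550 to 18018797 in the authors' file, whose counting from 0 or 1 is not stated. It includes the cathepsin L gene ctsl1b, a marker of the hatching gland, and 5 of the 9 share a single locus record, so their separate values are uncertain. Their summed level was 1887, 2235 and 2181 FPKM in WT, 1891, 2575 and 1886 FPKM in Rad21 MO and 2409, 2306 and 1650.3 FPKM in CTCF MO. The groups overlapped in full, with means of 2101, 2117 and 2122 FPKM. None of the 9 was called. BX465840.1 differed most, at 42.3, 60.3 and 58.1 FPKM in WT, 17.1, 27.98 and 11.5 FPKM in Rad21 MO and 83.4, 50.8 and 28.1 FPKM in CTCF MO. Its difference was -1.53 (SE 0.39, adjusted p = 0.0752) to WT and -1.43 (SE 0.39, adjusted p = 0.0867) to CTCF MO. The authors list it at -1.51 against WT (q = 0.00122). On the shared record, the merged zgc:174154 locus gave 667, 878 and 632 FPKM in Rad21 MO, above all WT and CTCF MO libraries. There wu:fa26c03 lay below all WT libraries in Rad21 MO. The near-equal sums thus hold differences in both directions, and these loci are named here after their values were seen.

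**Figure D4:**
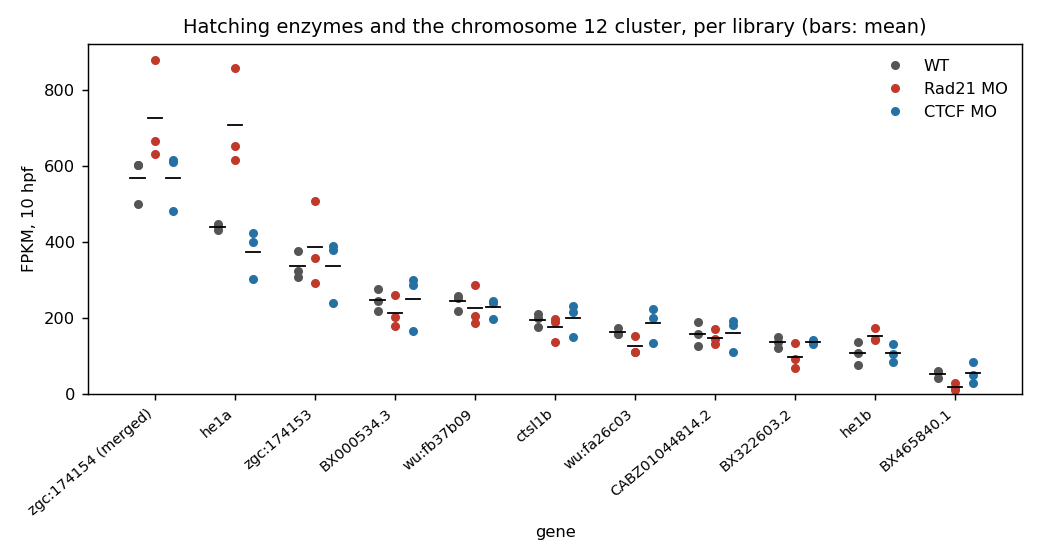
Level at 10 hpf (FPKM, axis from 0) of he1a, he1b and the 9 clustered late transcripts of chromosome 12 in each library, with the group mean as a bar. Rad21 MO libraries of he1a stand above those of WT and CTCF MO, and for ctsl1b the 3 groups overlap.

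The neural plate list holds 14 late transcripts. None was called against WT and sp8a was called lower against CTCF MO, with a median difference of -0.32 to WT and -0.19 to CTCF MO, and 11 of the 14 had negative values in each. The eye and forebrain gene pax6a stood at 16.7, 14.7 and 23.7 FPKM in WT, 11.9, 10.7 and 9.29 FPKM in Rad21 MO and 15.7, 18.7 and 13.1 FPKM in CTCF MO. Its Rad21 MO libraries lay below all others (-0.72, SE 0.20, adjusted p = 0.0875, to WT). nr2f1a, a nuclear receptor gene, differed by -0.68 (SE 0.18, adjusted p = 0.0736) from CTCF MO, and the glial filament gene gfap by -0.54 from WT (adjusted p = 0.29). On the other side were elavl3, a marker of new neurons (0.20 to WT), and the orphan receptor gene nr2f5 (0.01). The authors list pax6a, zic1, sp8a, gfap and nr2f1a as lower in Rad21 MO against WT. Their log2 fold changes are -0.825, -0.646, -0.585, -0.538 and -0.535 in that order (q from 0.0031 to 0.0135). None of the 14 is listed as higher. Among 72 other tested neural genes, which are not late transcripts, 8 were called lower against WT and 9 lower and 1 higher against CTCF MO, with medians of -0.36 and -0.30.

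Of 8 late transcripts on the list of neural crest, plate border and placodes, dlx5a was called lower against CTCF MO and none against WT, with medians of -0.34 to WT and -0.29 to CTCF MO. sox10, a crest transcription factor gene, stood at 19.6 FPKM in WT, 13.5 FPKM in Rad21 MO and 16.96 FPKM in CTCF MO (-0.51, SE 0.17, adjusted p = 0.154, to WT). The border gene dlx3b gave -0.44 (SE 0.11, adjusted p = 0.0715) to WT and zic1 -0.59 (SE 0.14, adjusted p = 0.0526). The authors list sox10 (log2 fold change -0.545, q = 0.014), dlx3b (-0.467, q = 0.0249) and zic1 (-0.646, q = 0.0102) as lower in Rad21 MO against WT. None of the 8 is listed as higher. twist1a, a gene of head mesenchyme, gave 15.8, 15.7 and 13.8 FPKM in WT, 14.1, 16.9 and 13.1 FPKM in Rad21 MO and 7.41, 11.7 and 9.17 FPKM in CTCF MO, where CTCF MO was the low group, and no difference was called (-0.64, SE 0.17, adjusted p = 0.999, for CTCF MO to WT). Of 26 other tested genes on this list, 6 were called lower and 1 higher against WT, and 5 lower against CTCF MO.

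The list of lateral mesoderm, blood, vessel, heart and kidney holds 5 late transcripts, none of them called, with medians of 0.15 to WT and 0.29 to CTCF MO. etv2, the transcription factor gene of the vessel lineage, stood at 33.2, 38.3 and 37.9 FPKM in WT, 38.9, 41.1 and 41.3 FPKM in Rad21 MO and 33.6, 35.6 and 29.6 FPKM in CTCF MO. Its Rad21 MO libraries lay above the others by a small margin (0.15, SE 0.11, adjusted p = 0.505, to WT). tal1, a blood transcription factor gene, differed by -0.01 and hand2, a gene of the heart field, by 0.25. None of 26 other tested genes of the list was called against WT, and 1 was called higher against CTCF MO.

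None of the 11 late transcripts of the endoderm, yolk and lipid transport list was called, and the medians were -0.12 to WT and -0.0015 to CTCF MO. Beside fabp2, apoa4 and the serpins this list holds dgat2 and mogat2, which encode enzymes of triglyceride synthesis and lie next to each other on chromosome 10 (-0.20 and 0.07 to WT). rbp4, a retinol carrier gene, varied most, at 20.5, 83.9 and 41.4 FPKM in WT, 29.1, 33.1 and 8.41 FPKM in Rad21 MO and 30.5, 83.5 and 35.4 FPKM in CTCF MO. Libraries of 1 group differed more than the group means did (-0.9997, SE 0.62, adjusted p = 0.435, to WT). Of 39 other tested genes of the list, 1 was called lower against WT, and 1 higher and 1 lower against CTCF MO.

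The 12 late transcripts on the extracellular matrix list gave 1 call against WT and none against CTCF MO, and tgfbi and col7a1l, described above, are not on it. The basement membrane collagen gene col4a6 stood at 35.6, 37.8 and 41.1 FPKM in WT, 27.4, 25.4 and 26.2 FPKM in Rad21 MO and 39.5, 36.2 and 30.4 FPKM in CTCF MO, with a difference of -0.52 (SE 0.12, adjusted p = 0.0496) to WT that was lost in 12 of 13 alternatives (adjusted p up to 0.177). Its neighbour col4a5 differed by -0.45 (SE 0.14, adjusted p = 0.131). Other matrix genes had positive values without passing the test, among them the thrombospondin gene thbs4b (16.5, 16.9 and 20.7 FPKM in WT and 38.4, 31.5 and 25.95 FPKM in Rad21 MO; 0.78, SE 0.22, adjusted p = 0.1) and sparc, which encodes a collagen-binding glycoprotein (0.57, SE 0.22, adjusted p = 0.211). The authors list thbs4b (log2 fold change 0.784, q = 0.00122), sparc (0.545, q = 0.0226), efemp2a (0.445, q = 0.0244) and col2a1a (0.615, q = 0.0496) as higher in Rad21 MO against WT. They list col4a6 (-0.543, q = 0.00397) and col4a5 (-0.468, q = 0.0216) as lower. The median of the 12 by limma was 0.19 to WT and 0.08 to CTCF MO. Of 39 other tested matrix genes, 2 were called lower in each comparison and none higher.

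Of 4 late transcripts on the epidermis list, cav1 was called against CTCF MO as given above, and the ictacalcin gene icn2, anxa2a, an annexin gene, and the laminin gene lama5 differed by 0.14, -0.33 and -0.14 from WT. None of 33 other tested epidermal genes was called in either comparison. The notochord and floor plate list holds shha, which encodes the Sonic hedgehog ligand (17.1, 21.4 and 16.1 FPKM in WT, 12.8, 14.6 and 14.1 FPKM in Rad21 MO and 18.5, 20.8 and 17.7 FPKM in CTCF MO), and the fibrillar collagen gene col2a1a. The Rad21 MO libraries of shha lay below all others, at -0.36 (SE 0.13, adjusted p = 0.186) to WT. Those of col2a1a lay above WT (0.59, SE 0.22, adjusted p = 0.185) but not above CTCF MO (0.02). Of 13 other tested genes of that list, 1 was called lower against WT and 2 against CTCF MO. The ciliary transcription factor gene rfx4, from the list on Kupffer's vesicle and cilia, differed by -0.06 (adjusted p = 0.893), and none of 36 other tested genes of that list was called. No late transcript is on the p53 or earlier-stage list.

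**Figure D5:**
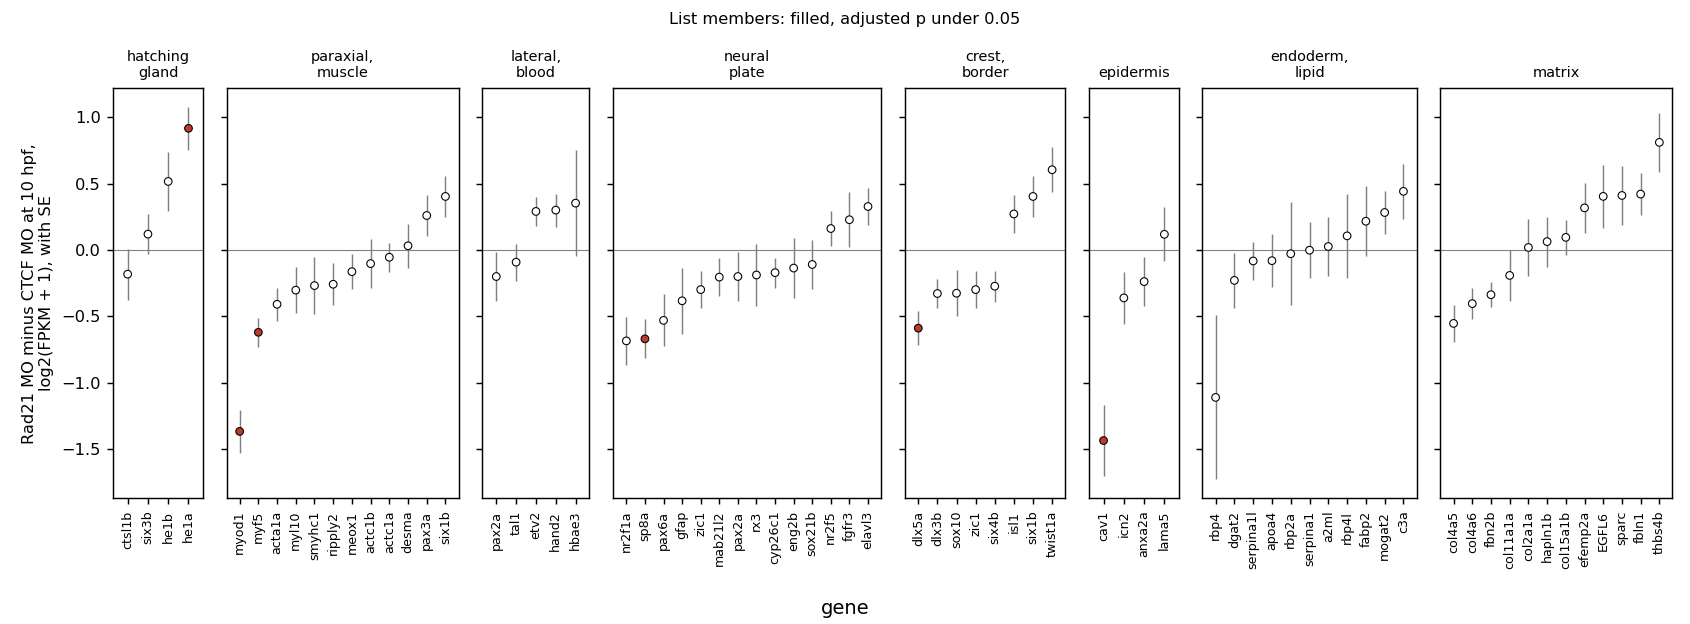
Difference of Rad21 MO minus CTCF MO at 10 hpf on the log2(FPKM + 1) scale, with its SE, for the late transcripts on each list with at least 4 of them. Filled points passed the adjusted threshold, among them myod1 (-1.37) and he1a (0.92), and open points did not.

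In CTCF MO no late transcript was called against WT at 10 hpf. With limma, 0 of 269 passed the adjusted threshold, beside 0.0182% of all genes (3 of 16485), and 9 lay at an unadjusted p under 0.05, 6 higher and 3 lower. The smallest adjusted p among the late transcripts was 0.999, and a fit of all 45 libraries together called 2. Below WT in every library lay the complement gene c3a, at 27.5, 41.5 and 46.9 FPKM in CTCF MO and 49.5, 74.5 and 57.4 FPKM in WT (-0.65, SE 0.21, adjusted p = 0.999). fbn2b, a fibrillin gene, lay above WT in every library, at 34.3, 30.8 and 32.04 FPKM against 26.5, 26.6 and 25.8 FPKM (0.29, SE 0.10, adjusted p = 0.999). Of the tested late transcripts 2.23% lay wholly above and 1.86% wholly below WT, beside 3.91% and 3.49% of all genes. These missed thresholds do not show that the levels were equal: the SE of a typical difference, such as 0.16 for myod1, leaves room for a moderate change.

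The authors' deposited tables for 10 hpf list more of these genes. In the authors' deposited table for Rad21 MO against WT, 1496 genes are listed, 54 of them late transcripts, 12 higher and 42 lower, and all 15 called by limma are among them. he1a is listed there with a log2 fold change of 0.667 (q = 0.00222) and cav1 with -1.17 (q = 0.00122). The authors' deposited table for CTCF MO lists 135 genes, of which 3 are late transcripts, namely c3a, the apolipoprotein B locus APOB (1 of 3) and zgc:112992, with log2 fold changes of -0.635, -0.608 and 0.567. Only genes that the authors marked as significant are listed. The share among all genes they tested is thus unknown, and nothing is read from these counts of late transcripts.

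The late transcripts lie on all 25 chromosomes, from 4 on chromosome 17 to 19 on chromosome 12. Within 100000 base pairs of another late transcript lay 49 of them (17.9%), in 20 pairs and the cluster of 9 on chromosome 12. This share was not taken over other genes, and the pair of he1a and he1b shares a single locus record. In the pair of six1b and six4b, placodal homeobox genes, the differences of Rad21 MO to WT were 0.11 and -0.23, neither called. In some other pairs both Rad21 MO means lay on the same side of WT, below for col4a6 and col4a5 and above for he1a and he1b. Whether neighbours change together was not tested. Between libraries of a group the late transcripts varied somewhat more than other genes at 15 FPKM or more in WT, which were not matched in level. The median SD of log2(FPKM + 1) for WT was 0.21 over the late transcripts and 0.16 over 6033 such other genes. For Rad21 MO these were 0.177 and 0.126, and for CTCF MO 0.257 and 0.177.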

How the data were processed

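Whole zebrafish embryos were measured by stranded total RNA sequencing on an Illumina HiSeq, per the labels' protocols. The authors deposited FPKM per gene and library. The submitters' processing notes name Zv9 (danRer7) as the build, and as tools Cuffdiff, Cufflinks (version 2.2.0) and TopHat2 (version 2.0.9). Scaling between libraries is not given in the sources used here. The authors' deposited tables for 10 hpf hold group FPKM, a log2 fold change, a p-value and a q-value, and list the genes they marked as significant. An exact 0 can be a failed estimate. Whole reads could not be recovered, so no count test was run and read depth is unknown.

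The late transcripts, the gene lists and the tests were chosen with earlier results of these data known. Groups came from the sample titles. For 1 Rad21 MO sample titled 3.3 hpf and 1 titled 4.5 hpf the age label gives the other stage, which touches no value at 10 hpf. The test was limma's (version 3.58.1, R 4.3.3) on log2(FPKM + 1) (mean-variance trend, two-sided, Benjamini-Hochberg adjustment over all genes tested, call at adjusted p under 0.05), on the 9 libraries of 10 hpf or the 15 of a morpholino course, for genes with at least 3 libraries at 1 FPKM or more. Differences are on this scale, which understates changes of low genes, and are Rad21 MO or CTCF MO minus the group named. The fit was tested on simulated data. Alternatives were other pseudocounts, no filter, rescaling, quantile normalization, a single fit of all 45 libraries and leaving out each library of the groups compared. Named genes were the 10 highest with a symbol, those called, those on a list, those nearest a threshold and those reaching 1 FPKM early in a morpholino group, and 1 called gene is not reported here. Summaries and plots were made with data.table (version 1.17.8), Python 3.11.15, pandas 2.3.3, numpy 2.4.6 and matplotlib 3.10.9.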

Additional observations from a re-analysis of the deposited data

How the results depend on the processing

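No paired analysis was possible because the columns of the table carry group names and numbers but no replicate letter. Under 13 alternatives per comparison, no called late transcript reversed. Of the 15 called in Rad21 MO against WT, 5 stayed called under all of them, fsta, the bmp3 locus, slc23a1 and ENSDARG00000078976 among them, and of the 23 called against CTCF MO 7, those 5 with myod1 and tgfbi.

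Late transcripts called against WT numbered 5 after rescaling to equal sums, 8 when small RNA was left out of the sums, 57 in the fit of all 45 libraries and 6 to 19 when a library was left out. Against CTCF MO they numbered 11 after rescaling, 61 in the fit of all libraries and 7 to 16 without a library. CTCF MO against WT gave 2 in the fit of all libraries and 0 in every fit without a library. Over all genes, Rad21 MO against WT gave 325 calls with no filter, 89 and 158 after both rescalings, 326 after quantile normalization, 2079 in the fit of all libraries and 66 to 565 without a library. Against CTCF MO they were 336 with no filter, 154 and 271 after both rescalings, 377 after quantile normalization, 2230 in the fit of all libraries and 63 to 288 without a library. CTCF MO against WT gave 5 with no filter, 76 in the fit of all libraries and 2 to 4 without a library. The courses from 5.3 to 10 hpf gave 12085 to 12185 and 10892 to 11222 calls without a library, with 267 to 268 late transcripts in each.

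The set itself depends on its thresholds. In WT it held 427 genes at 10 FPKM or more, 112 at 30 or more and 175 when libraries were scaled to the mean sum, the Rad21 MO course gave 445, 113 and 176, and the CTCF MO course 107 at 30 or more and 168 after scaling. With earlier means held below 0.5 FPKM, the counts for WT, Rad21 MO and CTCF MO were 198, 203 and 187. Below 2 FPKM they were 360, 394 and 365. Leaving out a 10 hpf library gave 268 to 293, 270 to 287 and 257 to 267. Early presence fell to 2 and 5 at a mean of 2 FPKM, and to 4 and 9 when all 3 libraries had to reach 1 FPKM (Rad21 MO first). The cause of these changes was not tested. With 3 pools a group and no read depth, small differences of genes near 15 FPKM cannot be resolved.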
